A study of Mus musculus with 13 samples.

Results

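The 37 genes described here are transcripts that T cells and natural killer (NK) cells are known for: 4 genes of the CD3 complex, 3 coreceptor genes, 7 adhesion and costimulation receptors, 6 proteins of proximal T cell receptor signalling, 2 homing and survival receptors, 6 transcription factors, 5 genes of the cytotoxic granule, 3 NK receptors and the cytokine Ifng. They were taken as a list of symbols, without use of their values, and all 37 have a row among the 19838 genes of each deposited table. RNA was taken from the aorta and the gastrocnemius, a calf muscle, of 88-week-old mice of the strain FVBxC57BL/6. The dNdK animals had the genotype GFP-FOXM1dNdKtg/+ Rosa26-rtTAtg/+, so they carried a GFP-tagged FOXM1, a transcription factor of the cell cycle, beside the transactivator rtTA; the Rosa26 animals had GFP-FOXM1dNdK-/- Rosa26-rtTAtg/+, so both genotypes carried rtTA, a transactivator that acts with doxycycline and is expressed here from the widely active Rosa26 locus. There were 2 dNdK and 4 Rosa26 aorta libraries, and 3 dNdK and 4 Rosa26 muscle libraries. The labels give no sex and no treatment, and do not say whether the libraries of a group come from separate animals, so each p-value measures the spread between these libraries.

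A T cell recognises antigen through a receptor whose signal is carried by the CD3 chains and Cd247, which encodes the zeta chain. The kinase Lck, which binds the coreceptors CD4 and CD8, phosphorylates these chains; Zap70 then binds them and phosphorylates the adaptor Lat. CD28 gives the costimulatory signal and CTLA4 competes for the same ligands. NK cells and CD8 T cells kill by releasing perforin (Prf1) and granzymes. Arteries and resting skeletal muscle hold few lymphocytes, and the fat and lymph nodes around a vessel hold more.

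The genes Cd3g, Cd3d and Cd3e lie side by side on chromosome 9, with 1.34 kb between Cd3g and Cd3d and 11.7 kb between Cd3d and Cd3e. Their promoters are shown because this cluster encodes the receptor's signalling chains, whose levels are followed in the comparisons further on. Each window runs from 250 bases before to 50 bases after a promoter start on GRCm38.p6. The windows are chr9:44980382-44980681 on the minus strand for Cd3g, chr9:44981536-44981835 on the plus strand for Cd3d and chr9:45009562-45009861 on the minus strand for Cd3e. For Cd3g this start is that of the RefSeq gene, and for Cd3d and Cd3e it lies inside the RefSeq gene. Capitals mark the letters AGGAAG (an ETS core), TGTGGT (a RUNX core) and CACCTG (an E-box), or their reverse complements.
Cd3g: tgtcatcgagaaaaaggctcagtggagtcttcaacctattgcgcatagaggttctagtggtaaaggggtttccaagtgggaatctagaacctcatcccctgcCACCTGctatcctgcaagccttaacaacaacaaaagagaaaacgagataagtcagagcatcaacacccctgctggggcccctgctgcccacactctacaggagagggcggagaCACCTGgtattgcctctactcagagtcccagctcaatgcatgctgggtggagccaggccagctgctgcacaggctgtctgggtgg
Cd3d: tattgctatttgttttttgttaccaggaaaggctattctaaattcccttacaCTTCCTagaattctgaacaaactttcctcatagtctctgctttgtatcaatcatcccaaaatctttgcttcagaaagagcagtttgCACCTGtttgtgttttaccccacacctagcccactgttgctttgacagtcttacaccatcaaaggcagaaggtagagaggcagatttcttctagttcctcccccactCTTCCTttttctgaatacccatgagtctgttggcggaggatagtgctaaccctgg
Cd3e: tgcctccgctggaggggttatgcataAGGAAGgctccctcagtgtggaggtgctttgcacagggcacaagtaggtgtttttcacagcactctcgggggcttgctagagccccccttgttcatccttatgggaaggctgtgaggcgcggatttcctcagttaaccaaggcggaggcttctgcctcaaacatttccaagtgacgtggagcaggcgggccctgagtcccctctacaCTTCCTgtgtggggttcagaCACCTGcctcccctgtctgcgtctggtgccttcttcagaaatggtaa
Cd3d and Cd3e held 2 matches to AGGAAG each, and Cd3g held none. CACCTG was found 2 times in Cd3g and 1 time each in Cd3d and Cd3e. TGTGGT was not among the letters of these 3 windows. Promoter windows were at hand for 28 of the 37 genes, 37 windows in all. AGGAAG or its complement was in 45.9% of them and in 35.4% of the 32851 windows of all genes, TGTGGT in 32.4% and 16.8%, and CACCTG in 43.2% and 20.2%. Both strands were searched, no match overlapped another in the 3 windows shown, and a match describes the letters only.

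The libraries held 3919526 to 13683952 gene counts, so 3 counts stood for 0.219 to 0.765 CPM, the usual scaling of a count to the total of its library. Their make-up differed within genotypes. Myh6, the myosin of heart muscle, stood at 685 CPM in aorta dNdK 2, 911 CPM in aorta Rosa26 1 and 394 CPM in aorta Rosa26 2, and at or near 0 in the other 10 libraries. The lymphocyte precursor genes Rag1, Rag2 and Dntt, which join and trim antigen receptor genes, had 109, 13 and 160 counts in aorta Rosa26 1 and 46, 4 and 53 counts in aorta Rosa26 2. Outside those 2 libraries they had 1 count in all, of Dntt in muscle Rosa26 2. Summed fat markers, among them the brown fat gene Ucp1, stood at 20800 to 26700 CPM in the aorta libraries, and smooth muscle markers at 196 to 474 CPM. The adipocyte gene Adipoq was found in every aorta library, and muscle dNdK 3 had 129 CPM of Adipoq, against 0.736 to 6.89 CPM in the other 6 muscle libraries. The defining skeletal muscle transcripts Acta1, Ckm and Myh4 stood at 11400 CPM or more in every muscle library, and the smooth muscle myosin Myh11 at 71.9 to 103 CPM in every aorta library.

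**Figure D1:**
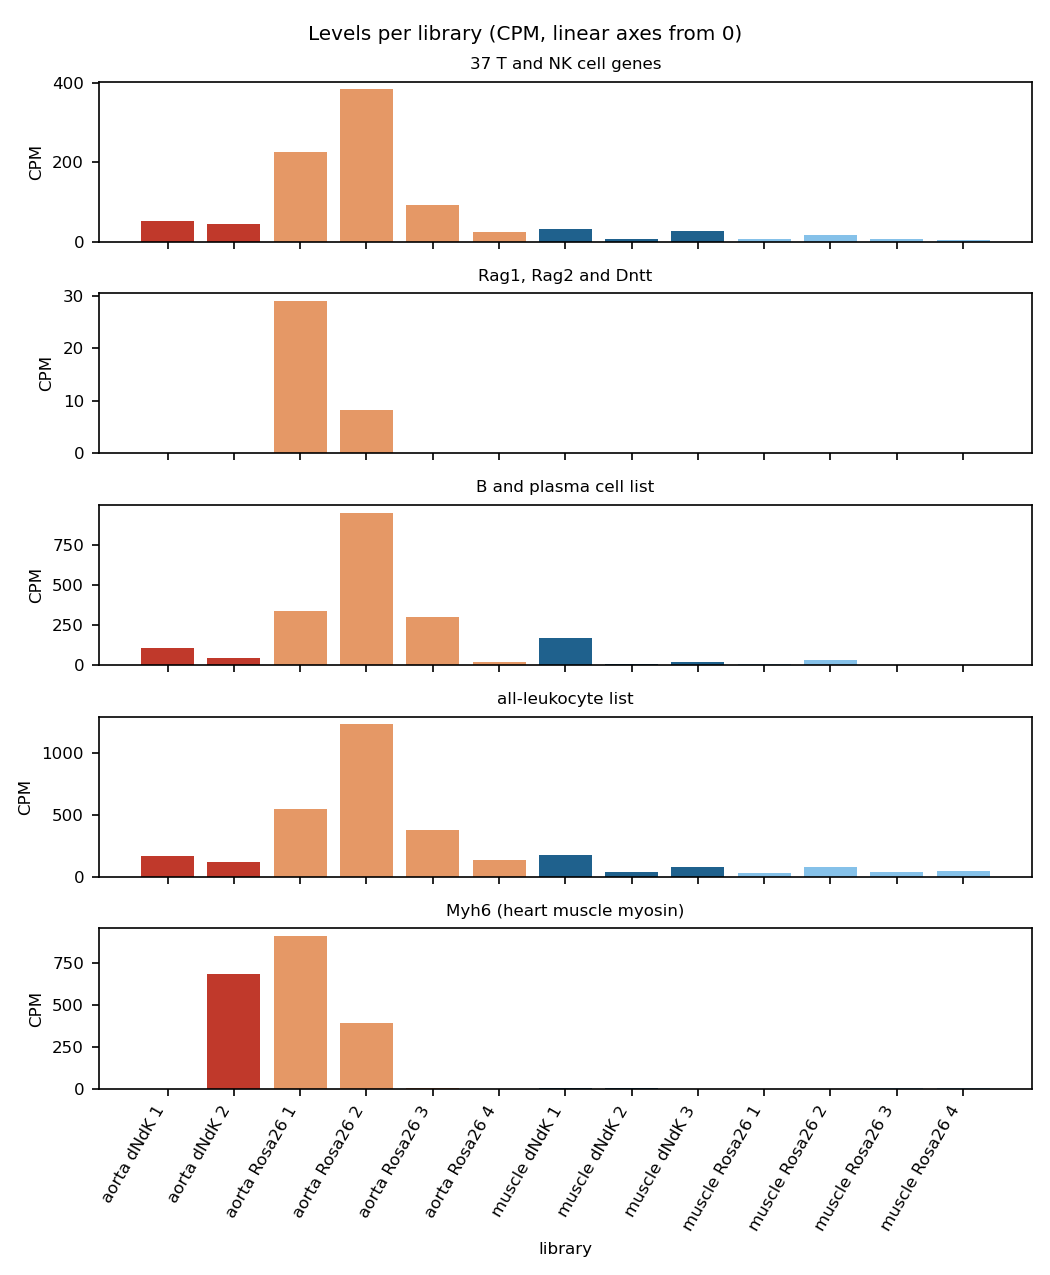
Bars give, for each of the 13 libraries on the horizontal axis, the summed CPM of the 37 T and NK cell genes, of Rag1, Rag2 and Dntt, of the B and plasma cell list, of the all-leukocyte list, and the CPM of Myh6, each on a linear axis from 0. Aorta Rosa26 1 and 2 have the highest bars of the 37 genes and are the only libraries with Rag1 counts, and aorta dNdK 2 has Myh6 RNA without Rag1 counts.

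Summed over the 37 genes, T and NK cell transcripts came to 52.1 and 44.7 CPM in aorta dNdK 1 and 2, against 227, 384, 92.7 and 25.0 CPM in aorta Rosa26 1 to 4. The Rosa26 values spread widely and lay on both sides of the dNdK pair: 3 were above it and Rosa26 4 was below it. In muscle the sum was 32.4, 7.14 and 27.8 CPM in dNdK 1 to 3, against 6.59, 15.7, 7.54 and 4.94 CPM in Rosa26 1 to 4, so that dNdK 1 and 3 lay above every Rosa26 library and dNdK 2 lay within their range. The mean was 48.4 ± 5.23 CPM in dNdK aortas (SD, n = 2) and 182 ± 159 CPM in Rosa26 aortas (SD, n = 4). It was 22.4 ± 13.5 CPM in dNdK muscles (SD, n = 3) and 8.69 ± 4.79 CPM in Rosa26 muscles (SD, n = 4). The transcription factors made up 8.64% to 56.6% of these counts in dNdK muscles and 29.3% to 66.0% in Rosa26 muscles. In the aortas they made up 11.2% to 15.7% in dNdK and 10.2% to 18.6% in Rosa26. In muscle Rosa26 4, Tbx21 had 21 of 53 counts and the CD3 complex genes had 2, so the muscle sums do not stand for the CD3 genes. Each gene is read through its own amplicon, so a sum weights genes by how well they amplify, and levels are compared here between libraries and not between genes. In whole tissue, fewer cells of a type and less RNA per cell cannot be told apart.

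The differences between libraries ran through most of the list. Of the 37 genes, 25 had their highest CPM in aorta Rosa26 2, 7 in Rosa26 1, 2 in Rosa26 3 and 3 in another library. Aorta Rosa26 1 and 2 were both above both dNdK aortas for 32 genes, while Rosa26 4 was at or below both dNdK aortas for 26. The number of the 37 genes with at least 1 count was 34 and 31 in the dNdK aortas, 34, 36, 34 and 24 in the Rosa26 aortas, 28, 18 and 35 in the dNdK muscles and 15, 28, 21 and 10 in the Rosa26 muscles. In 9 genes no muscle library passed 3 counts, and Cd27, a costimulatory receptor, had 1 count in total over the 13 libraries, so nothing can be said of it at this depth.

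**Figure D2:**
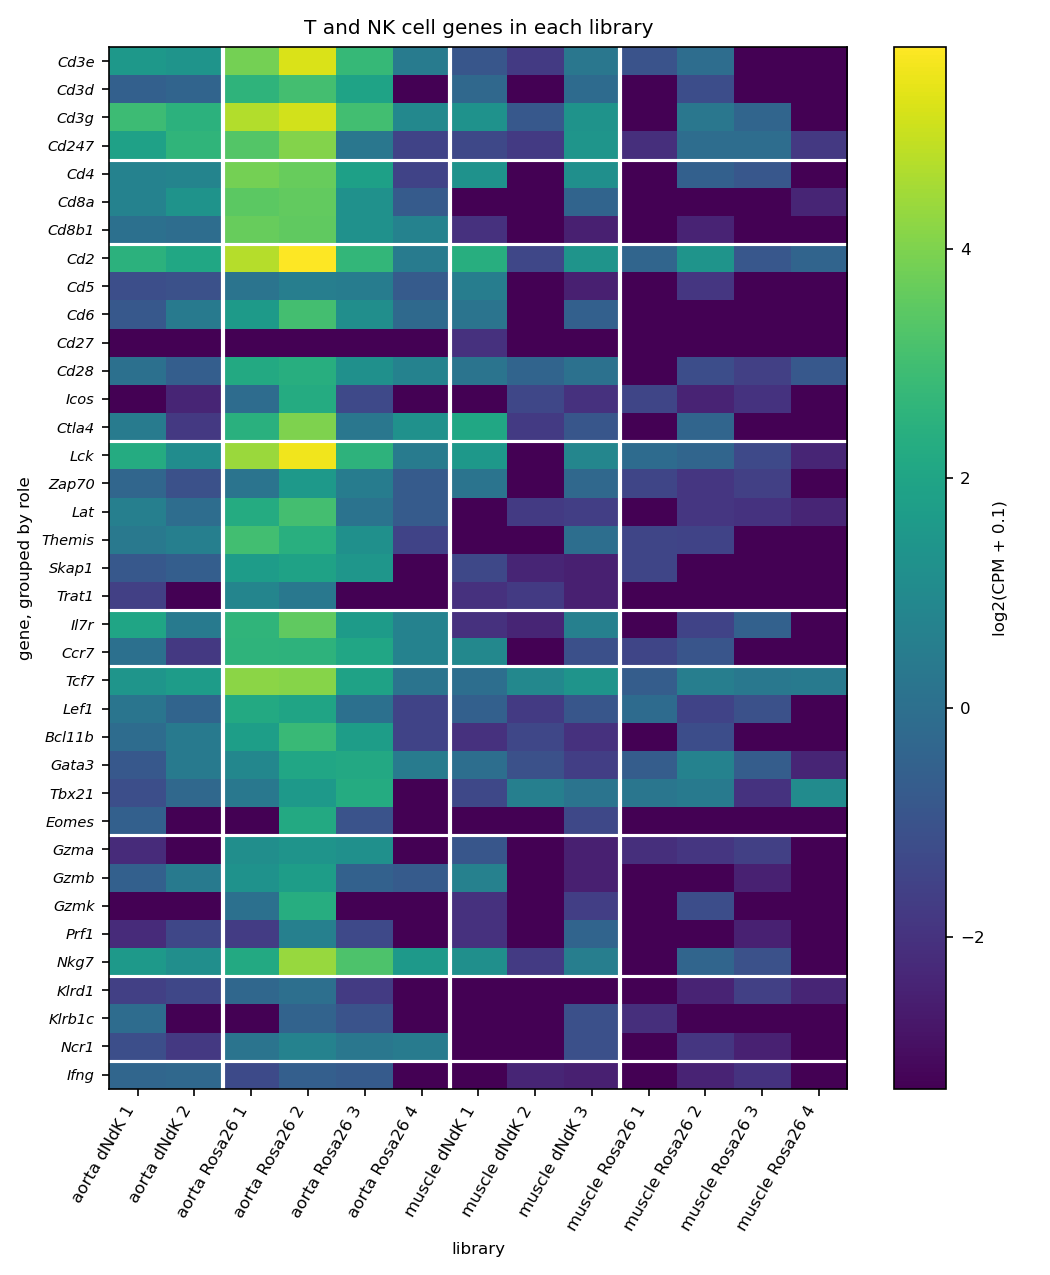
Each row is one of the 37 genes, grouped by role with white lines, and each column a library; colour gives log2(CPM + 0.1). The columns of aorta Rosa26 1 and 2 are the brightest in most rows, and the muscle columns hold many genes at 0 counts, shown in the darkest colour.

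Other leukocyte genes ran beside the T and NK cell genes. For every 100 counts of a list of 10 genes used by all leukocytes, the 37 genes had 30.4 and 37.3 counts in the dNdK aortas and 41.5, 31.2, 24.5 and 18.4 counts in the Rosa26 aortas. The dNdK values lay inside the Rosa26 range. In muscle the figure was 18.1, 17.8 and 33.9 counts in dNdK and 20.0, 18.9, 19.6 and 10.1 counts in Rosa26, with only dNdK 3 above the Rosa26 libraries. Summed B and plasma cell genes stood at 105 and 45.4 CPM in the dNdK aortas and 339, 951, 302 and 17.9 CPM in the Rosa26 aortas, in the same order of libraries as the T and NK cell sum. The part of these other cells in the results below was not tested.

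The first comparison asks whether T and NK cell transcripts differ between dNdK and Rosa26 aortas. Every tested gene of the list had a lower estimate in dNdK aortas than in Rosa26 aortas, the 4 Rosa26 libraries differed widely among themselves, and no difference passed the test. Of the 37 genes, 29 had enough counts to be tested. With the edgeR quasi-likelihood test and Benjamini-Hochberg adjustment over 11920 genes, 0 of the 29 passed an adjusted p of 0.05, where 0.00839% of all genes did, and DESeq2 called 0. At an unadjusted p under 0.05 there were 6 of 29 by edgeR, beside 5.98% of all genes. DESeq2, run without the filter on low counts, had 14 of 36 members at an unadjusted p under 0.05, and the share of all genes there was not taken. The median log2 fold change of the 29, dNdK over Rosa26, was -1.81, and that of all genes was -0.046; 54.2% of all genes had a lower estimate. The filter keeps a gene through its counts in any group, so these figures describe the tested genes and not all members. With no filter 34 of 36 estimates were lower and 2 higher.

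Ccr7, the chemokine receptor that brings naive and memory T cells into lymph nodes, had 0.933 and 0.187 CPM in the dNdK aortas and 5.96, 5.73, 4.05 and 1.53 CPM in the Rosa26 aortas. All 4 Rosa26 libraries lay above both dNdK libraries. Its log2 fold change was -2.82 (SE 0.82), with an edgeR adjusted p of 0.757. Cd28 had 0.933 and 0.561 CPM in the dNdK aortas and 4.52, 5.08, 2.23 and 1.53 CPM in the Rosa26 aortas, again with every Rosa26 library above both dNdK libraries (log2 fold change -2.02, SE 0.69, edgeR adjusted p 0.757). Cd8b1, the CD8 beta chain, had 0.933 and 0.841 CPM in the dNdK aortas and 12.3, 11.5, 2.33 and 1.53 CPM in the Rosa26 aortas. The groups did not overlap, and Rosa26 1 and 2 stood apart from Rosa26 3 and 4 (log2 fold change -2.81, SE 0.95, edgeR adjusted p 0.757).

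Ncr1, which encodes the NK receptor NKp46, had 0.35 and 0.187 CPM in the dNdK aortas and 1.03, 1.53, 1.11 and 1.28 CPM in the Rosa26 aortas. The Rosa26 aortas were close together, and both dNdK libraries were below all 4 (log2 fold change -2.04, SE 0.78, edgeR adjusted p 0.757). Cd5, a receptor that dampens T cell receptor signals, and Gata3, a factor of T helper cells, also had groups that did not overlap. In TMM-scaled CPM, the scale of the fits, 6 of the 29 genes were lower without overlap, where 8.2% of all genes were, and none was higher without overlap, where 9.14% were. Ctla4 had 1.28 and 0.187 CPM in the dNdK aortas and 5.34, 16.0, 1.11 and 2.3 CPM in the Rosa26 aortas. Its groups overlapped, since dNdK 1 was above Rosa26 3 (log2 fold change -2.95, SE 1.22, edgeR adjusted p 0.757).

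The CD3 genes showed the same spread. Cd3e had 2.8 and 2.52 CPM in the dNdK aortas and 14.4, 37.7, 6.68 and 1.28 CPM in the Rosa26 aortas, and Cd3g had 7.34 and 5.61 CPM in the dNdK aortas and 25.9, 35.3, 7.89 and 1.79 CPM in the Rosa26 aortas. For both, Rosa26 1 to 3 lay above the dNdK pair and Rosa26 4 below it. Cd247 had 3.61 and 5.98 CPM in the dNdK aortas and 9.86, 16.9, 1.11 and 0.255 CPM in the Rosa26 aortas, and here Rosa26 3 and 4 were both below the dNdK pair. The log2 fold changes of the 4 CD3 complex genes ran over -2.68 to -0.41, none past the threshold.

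Several genes of killer cells had few counts. Gzma, a granzyme of NK cells and killer T cells, had 1 count in the 2 dNdK aortas and 74 counts in the 4 Rosa26 aortas, with 2.16, 2.5, 2.23 and 0 CPM in Rosa26 1 to 4. Rosa26 1 to 3 were alike and Rosa26 4 was at 0. Pooled by CPM, the Rosa26 level was 39.7 times the dNdK level, with an exact 95% counting interval of 6.91 to 1590. Gzmk had 0 counts in the dNdK aortas and 71 in the Rosa26 aortas, so it was at least 12.7-fold lower in dNdK against a floor of 3 counts over the group. All the Gzmk counts fell in Rosa26 1 and 2, at 0.924 and 5.0 CPM. Icos, a costimulatory receptor of activated T cells, had 1 count against 69, and the counting interval of the pooled ratio of Rosa26 to dNdK was 6.43 to 1480. Such intervals cover counting error only: reads carry no molecular tags, and the spread between libraries is not in them. Gzmb, in contrast, had 0.583 and 1.21 CPM in the dNdK aortas and 2.36, 3.23, 0.607 and 0.51 CPM in the Rosa26 aortas, with overlapping groups. Ifng, the cytokine of T helper and NK cells, was not tested by edgeR and had 0.699 and 0.748 CPM in the dNdK aortas and 0.308, 0.565, 0.506 and 0 CPM in the Rosa26 aortas, so both dNdK values lay above all 4 Rosa26 values.

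The size of these differences depended on aorta Rosa26 1 and 2. Without both, the libraries with Rag1 counts, the test kept 19 of the genes, 12 had a lower estimate in dNdK, the median log2 fold change was -0.52, and 0 passed. Without the 3 aorta libraries with Myh6 RNA, which leaves 1 dNdK library whose spread is assumed to be that of the others, 26 were tested, 18 had a lower estimate, the median was -0.68, and 0 passed. Leaving out Rosa26 4 alone, the library with the lowest sum, also gave 0 calls. Then 21 of 29 genes had an unadjusted edgeR p under 0.05, against 6 of 28, 4 of 28 and 7 of 29 without Rosa26 1, 2 or 3. The share of all genes in these fits was not taken, so the 21 cannot be read as particular to the list.

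**Figure D3:**
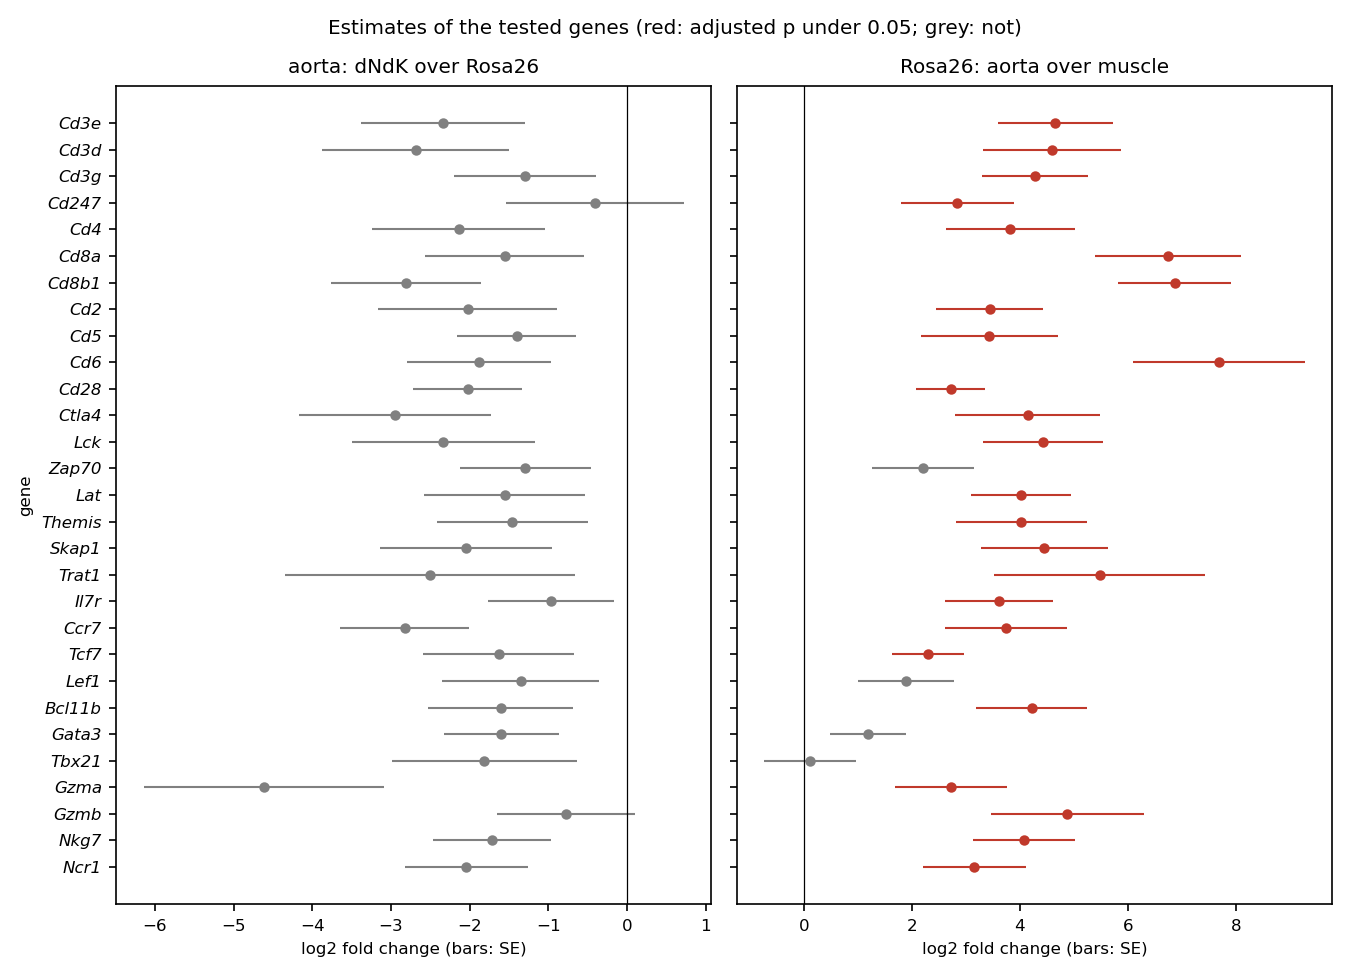
Points give the log2 fold change of the 29 tested genes and bars its SE, at left for dNdK over Rosa26 in aorta and at right for aorta over muscle in Rosa26; red marks an edgeR adjusted p under 0.05. All points at left are below 0 and grey, and 25 of 29 at right are red; the fitted values of genes with few or no counts in a group, such as Gzma at left and Cd6 at right, depend on the prior count.

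The second comparison sets dNdK against Rosa26 in gastrocnemius, where T and NK cell transcripts were close to the limit of detection. Most genes had a higher pooled CPM in dNdK muscle, but the excess sat in dNdK 1 and 3 and no gene passed. Only 4 of the 37 genes had enough counts to be tested. By edgeR 0 passed, where 0.0% of 10491 genes did, and 0 had an unadjusted p under 0.05, where 7.55% did. DESeq2, without the filter, called 0 of 37 members, where 7 of 15851 genes were called. It had 2 of the 37 at an unadjusted p under 0.05, and the share of all genes by DESeq2 was not taken. The median log2 fold change of the 4 was 0.85, and that of all genes was 0.026. The median of the tested genes was 0.18 without Rosa26 2 (2 tested), 0.46 without dNdK 1 (4 tested) and 1.92 without dNdK 2 (8 tested).

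Cd3g had 2.36, 0.47 and 2.41 CPM in the dNdK muscles and 0, 1.11, 0.686 and 0 CPM in the Rosa26 muscles. The groups overlapped through dNdK 2 (log2 fold change 1.73, SE 1.02, edgeR adjusted p 0.715). Cd2, an adhesion receptor of T and NK cells, had 5.01, 0.282 and 2.48 CPM in the dNdK muscles and 0.672, 2.47, 0.457 and 0.652 CPM in the Rosa26 muscles, with Rosa26 2 inside the dNdK range (log2 fold change 1.15, SE 0.88, edgeR adjusted p 0.797). Tcf7, the factor of naive and memory T cells, had 0.883, 1.79 and 2.48 CPM in the dNdK muscles and 0.538, 1.36, 1.14 and 1.21 CPM in the Rosa26 muscles, and its groups overlapped (log2 fold change 0.55, SE 0.48, edgeR adjusted p 0.824). Tbx21, which encodes the factor T-bet, had 0.294, 1.41 and 1.02 CPM in the dNdK muscles and 1.08, 1.19, 0.152 and 1.96 CPM in the Rosa26 muscles. It had a log2 fold change of -0.35 (SE 0.77), and without Rosa26 4 the estimate was 0.11, so its direction is not settled.

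The other 33 genes are described by pooled counts. Cd6, an adhesion receptor, had 15 counts in dNdK muscle and 0 in Rosa26 muscle, at least 6.92-fold higher in dNdK. Cd8a had 9 counts against 1, a pooled ratio of 12.5 with a counting interval of 1.73 to 546, and Gzmb had 11 against 1, a ratio of 15.2 (2.21 to 655). Prf1 had 10 counts against 1 (ratio 13.8, 1.97 to 600). By library, Cd6 had 7, 0 and 8 counts, Cd8a 0, 0 and 9, Gzmb 10, 0 and 1 and Prf1 1, 0 and 9 in dNdK 1 to 3. The Gzmb counts thus lay mainly in dNdK 1 and the Cd8a and Prf1 counts mainly in dNdK 3, the library with fat transcripts. Klrd1, the NK receptor CD94, ran the other way, with 0 counts in dNdK muscle and 5 in Rosa26 muscle. Of 34 genes with a pooled ratio, 4 of them at a bound, 30 were higher in dNdK. The share of all genes by unscaled pooled ratios was not taken. On another measure, the TMM-scaled fits of the genes that passed the filter in muscle, 53.1% of all genes had a higher estimate. Beside them, summed B and plasma cell genes stood at 172, 5.36 and 20.5 CPM in dNdK and at 6.46, 35.3, 4.27 and 3.36 CPM in Rosa26 muscle.

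Whether the genotype difference itself differed between the tissues was tested in a single fit of all 13 libraries. The labels do not tie aorta and muscle libraries to animals, so this fit and those between tissues took all libraries as independent, and their p-values rest on that. The estimates pointed to a lower ratio of dNdK to Rosa26 in aorta than in muscle for all 29 tested genes (24 of 29 without muscle dNdK 3), where 56.2% of all genes had a lower one, and none passed. Since 4 of the genes pass the filter in muscle alone, most enter this fit through the aortas where they are high, which favours this sign; with no filter 35 of 37 estimates were lower and 2 higher. By edgeR 0 of 29 passed, where 0.0% of 12318 genes did, and 11 had an unadjusted p under 0.05, beside 8.48% of all genes. DESeq2, without the filter, called 0 of 37 members, where 4 of 16960 genes were called. It had 15 of the 37 at an unadjusted p under 0.05, and the share of all genes by DESeq2 was not taken. The median difference of log2 fold changes was -3.20, and that of all genes was -0.10. Cd28 had a difference of -3.54 (SE 1.04, edgeR adjusted p 0.582), Ccr7 one of -4.63 (SE 1.82) and Nkg7, a granule membrane protein, one of -3.64 (SE 1.44), with the same adjusted p. Cd3d had one of -4.87 (SE 1.99) and Ctla4 one of -5.87 (SE 2.16), also at 0.582, and the estimate of Cd6 depends on the prior count, since Cd6 was at 0 in Rosa26 muscle. For Cd28 the muscle values were 1.03, 0.658 and 0.95 CPM in the dNdK muscles and 0, 0.34, 0.229 and 0.466 CPM in the Rosa26 muscles, so the dNdK muscles lay above all the Rosa26 muscles while the dNdK aortas lay below all the Rosa26 aortas. For Ccr7 the muscle values were 1.77, 0 and 0.365 CPM in the dNdK muscles and 0.269, 0.425, 0 and 0 CPM in the Rosa26 muscles, and those groups overlapped. Without the aorta libraries with Rag1 counts the median difference was -1.84.

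In Rosa26 mice most tested T and NK cell genes were higher in aorta than in muscle. Of the 29 tested genes 25 were higher in aorta by the edgeR quasi-likelihood test, where 29.9% of 12318 genes were, and none was lower, where 25.3% were. The filter keeps most of these genes through the aorta libraries, where they are high, so this count does not stand for all members. With no filter 25 of 37 were called higher, where 3627 of 17053 genes were. With the 2 Rosa26 groups fitted alone it was 12 of 14, where 3424 of 11058 genes were. The median log2 fold change, aorta over muscle, was 4.02, and that of all genes was 0.18; with the genes at 0 in muscle set to their bound the median was 3.82. All 4 CD3 complex genes, all 3 coreceptors, 5 of 5 tested adhesion and costimulation genes, 5 of 6 signalling genes, both homing and survival receptors, 3 of 3 tested granule genes and 1 of 1 tested NK receptor passed. Of 5 tested transcription factors, Tcf7 and Bcl11b did.

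Cd8b1 had 12.3, 11.5, 2.33 and 1.53 CPM in the Rosa26 aortas and 0, 0.085, 0 and 0 CPM in the Rosa26 muscles, which is 292 counts against 1. The pooled ratio was 350, with an exact 95% counting interval of 62.3 to 13900. Cd8a, the CD8 alpha chain, had 280 counts against 1 (ratio 335, 59.7 to 13300), and Cd6 had 153 against 0, at least 61.1-fold higher in aorta. Every Rosa26 aorta lay above every Rosa26 muscle for these 3 genes.

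Cd3e had 14.4, 37.7, 6.68 and 1.28 CPM in the Rosa26 aortas and 0.403, 0.85, 0 and 0 CPM in the Rosa26 muscles. The groups did not overlap in CPM, with Rosa26 aorta 4 nearest to the muscles (log2 fold change 4.66, SE 1.06, edgeR adjusted p 0.00257). Lck had 20.7, 47.7, 5.77 and 1.28 CPM in the Rosa26 aortas and 0.807, 0.68, 0.305 and 0.0932 CPM in the Rosa26 muscles, a log2 fold change of 4.43 (SE 1.11, edgeR adjusted p 0.00475). Every Rosa26 aorta was again above every Rosa26 muscle in CPM. Nkg7 had 4.52, 20.3, 9.21 and 2.81 CPM in the Rosa26 aortas and 0, 0.68, 0.381 and 0 CPM in the Rosa26 muscles, without overlap (log2 fold change 4.07, SE 0.94, edgeR adjusted p 0.00273). Cd3g (log2 fold change 4.29, SE 0.98), Lat (4.02, SE 0.93) and Cd28 (2.72, SE 0.64) passed with adjusted p of 0.00265, 0.00276 and 0.00317. Bcl11b, a factor that keeps T cells in their lineage, had 3.29, 6.94, 3.24 and 0.255 CPM in the Rosa26 aortas and 0, 0.34, 0 and 0 CPM in the Rosa26 muscles (log2 fold change 4.22, SE 1.03, edgeR adjusted p 0.00392). Tbx21, at 1.13, 2.9, 4.66 and 0 CPM in the Rosa26 aortas and 1.08, 1.19, 0.152 and 1.96 CPM in the Rosa26 muscles, overlapped between the tissues and had a log2 fold change of 0.11 (SE 0.85); Zap70, Lef1 and Gata3 were the other genes that did not pass. In TMM-scaled CPM, in which aorta values are lowered and muscle values raised, groups did not overlap for 13 of the 29 genes, where 25.7% of all genes were higher in aorta without overlap. Cd3e and Lck were not among these 13, so their groups overlapped on that scale.

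The number of these calls depends on aorta Rosa26 1 and 2. Without them the test called 6 of 24 genes higher, near the share of all genes, of which 2951 of 12016 were called higher. The median log2 fold change was then 2.47. Without these and aorta dNdK 2, which leaves 1 dNdK aorta library in the fit, 28 genes were tested and the median was 2.43. In that fit 26 of the 28 estimates were higher in aorta and 2 were lower. Among the genes named above, the log2 fold change was 5.04 for Cd8b1, 4.59 for Cd8a and 3.52 for Nkg7. That of Cd6, 6.29, depends on the prior count, since Cd6 was at 0 in Rosa26 muscle. Scaling matters too: libraries of muscle are dominated by a few contractile genes. With library size alone in place of TMM factors the median of all genes was 1.06 and that of the 29 was 4.89. Under that setting 28 passed, where 6846 of 12318 genes were called higher.

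In dNdK mice the same contrast gave no call. By edgeR 0 of 29 genes passed, where 27.1% of all genes did, and 1 gene, Cd8b1, had an unadjusted p under 0.05, where 38.8% did. DESeq2, without the filter, called 0 of 37 members, where 3768 of 16960 genes were called. It had 1 of the 37 at an unadjusted p under 0.05, and the share of all genes by DESeq2 was not taken. The median log2 fold change was 0.33, and that of all genes was 0.011. Cd8b1 had 0.933 and 0.841 CPM in the dNdK aortas and 0.147, 0 and 0.0731 CPM in the dNdK muscles, without overlap, and a log2 fold change of 3.00 (SE 1.20, edgeR adjusted p 0.0797). In TMM-scaled CPM, Cd3e, Cd3g, Cd247, Cd8a, Lat and Bcl11b were also higher in every dNdK aorta than in every dNdK muscle, 7 of 29 where 28.1% of all genes were, and Cd28 was lower in every dNdK aorta, as 27.8% of all genes were. The median was -0.092 without muscle dNdK 2 and 1.01 without muscle dNdK 1, and 1 gene passed without muscle dNdK 3. The difference between the 2 genotypes in this contrast is the interaction given above, in which no gene passed.

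**Figure D4:**
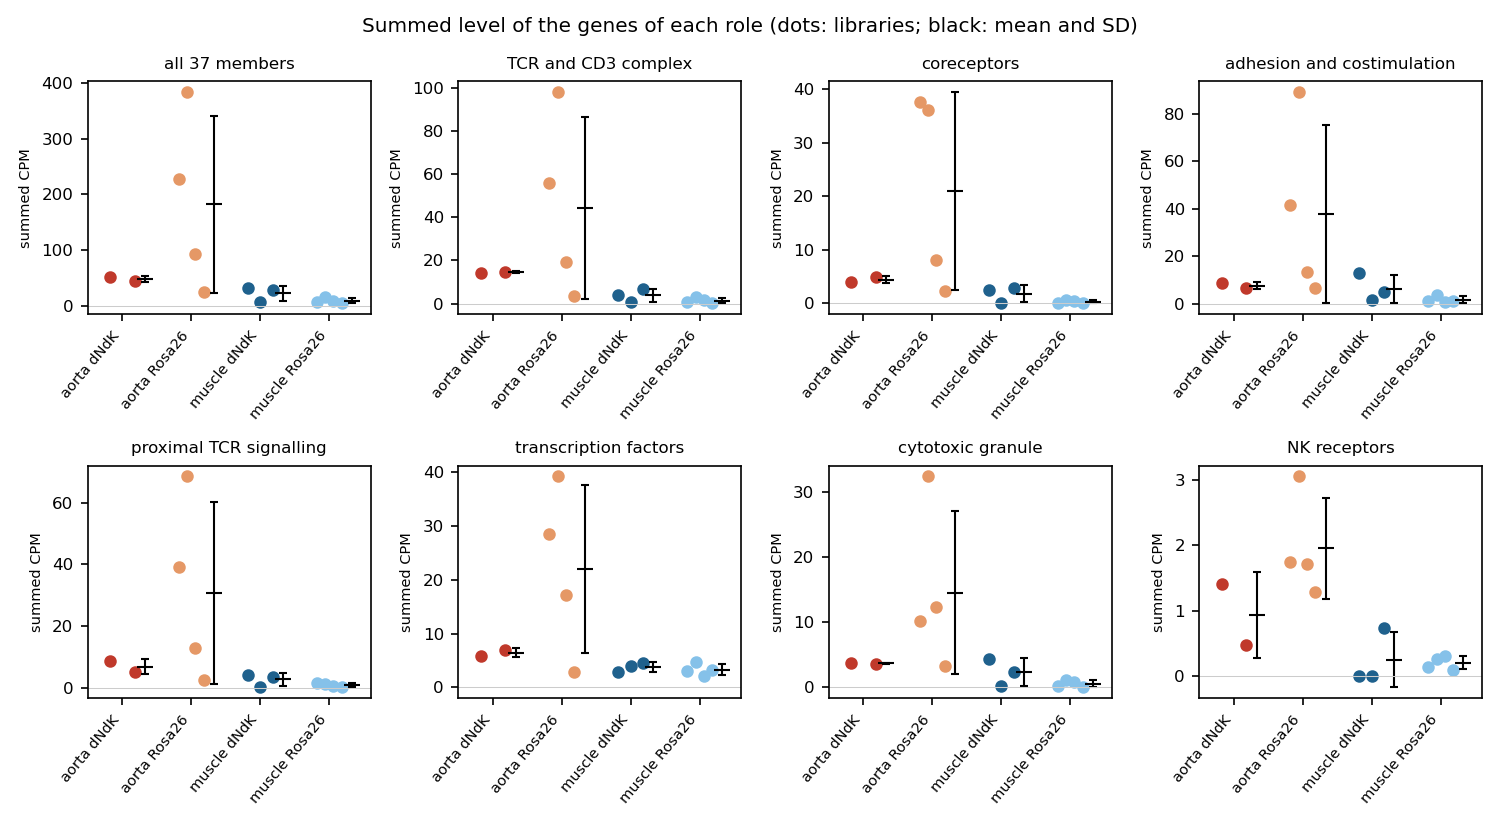
Dots give the summed CPM of the genes of each role in single libraries, for dNdK left of Rosa26 in each tissue, with the group mean and SD in black; the panels have their own linear axes. In 7 of the 8 panels aorta Rosa26 2 or 1 is far above the 2 dNdK aortas and aorta Rosa26 4 lies near or below them; for the NK receptors the Rosa26 aortas run from 1.28 to 3.06 CPM.

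Other genes of these cells, from lists chosen by function and not by their movement, were read in the same fits. In aorta, dNdK against Rosa26, no list had a called gene: estimates were lower for 23 of 24 tested T cell receptor signalling genes (median log2 fold change -1.11), 16 of 19 other surface and effector genes of T and NK cells (-1.36), 14 of 17 homing genes (-1.03), 7 of 7 GIMAP GTPase genes of lymphocytes (-0.81) and 11 of 18 other T lineage factors (-0.48). Estimates were lower as well for all 10 leukocyte genes (-2.40) and for 12 of 12 tested genes of B and plasma cells (-3.38). Between the tissues in Rosa26, 18 of 24 signalling genes, 12 of 19 surface and effector genes, 12 of 17 homing genes, 6 of 7 GIMAP genes and 7 of 18 T lineage factors were called higher in aorta, where 29.9% of all genes were. Called lower were 4 of the 24 signalling genes, 1 of the 19 surface and effector genes, 1 of the 17 homing genes, 0 of the 7 GIMAP genes and 5 of the 18 T lineage factors, where 25.3% of all genes were. Of the called genes, Lag3, an inhibitory receptor, was higher by 4.48 on the log2 scale. Not all genes of these pathways followed: Prkcq, a kinase downstream of CD28, was lower in aorta by a log2 fold change of -5.61, and the factors Maf (-3.75) and Satb1 (-3.93) were called lower too.

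The proportions among T cell transcripts can be set beside their amount. Of all Cd4, Cd8a and Cd8b1 counts, the CD8 chains took 61.8% (exact 95% binomial interval 43.6 to 77.8) and 67.3% (52.9 to 79.7) in dNdK aortas 1 and 2. They took 62.0% (56.8 to 67.0), 65.2% (60.6 to 69.7), 57.5% (45.9 to 68.5) and 88.9% (51.8 to 99.7) in Rosa26 aortas 1 to 4, so all 6 intervals share values. Genes of the cytotoxic granule made up 20.6% and 19.8% of the counts of these and the CD3 genes in the dNdK aortas. They made up 15.3%, 24.9% and 38.9% in Rosa26 aortas 1 to 3 and 13 of 26 counts in Rosa26 aorta 4, where Rosa26 3 (interval 33.4 to 44.5) and Rosa26 4 (29.9 to 70.1) stood above the other 4 libraries. Ctla4 and Icos, set against CD3 in the same way, made up 8.21% and 1.86% in the dNdK aortas and 9.9%, 17.4%, 6.8% and 40.9% in the Rosa26 aortas, and the groups overlapped. Counts are not independent molecules, so these intervals are too narrow by an unknown amount.

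Over the 6 aorta libraries, the log2(CPM + 0.5) of each gene was set against that of the summed CPM of Cd3e, Cd3d, Cd3g and Cd247. Apart from these CD3 genes, 10602 genes had a mean of at least 2 CPM. Those most like the CD3 sum, all outside the list, were Mki67 (Pearson r = 0.996), Ankmy2, Cklf, Cdca7l, Hsf1, Rb1, Cyfip2, Senp7, Hirip3 and Trim39 (r = 0.993). Mki67 marks dividing cells and Cklf encodes a small chemokine-like factor. Of the 16 other list genes with that mean, r ran over 0.515 for Gata3 to 0.986 for Cd2, with a median of 0.898, against a median of 0.335 for all 10602. The 6 points share the difference of Rosa26 1 and 2 from the rest, so these values describe likeness only.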

How the data were processed

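The deposited tables hold raw read counts per gene, 1 table for each of the 13 libraries. Total RNA was amplified with a mouse transcriptome primer pool and read on an Ion Torrent sequencer, per the labels' protocols. The authors aligned and counted with STAR 2.5.2b on mm10 (GRCm38.p6), per the submitters' processing notes, which also name edgeR 3.28.1 and limma 3.42.2. The unstranded count column was used, in which reads of a gene and an antisense partner cannot be told apart. Between 86.66% and 91.42% of a table's reads had a gene.

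In R 4.3.3, edgeR 4.0.16 kept genes by filterByExpr (min.count 10, min.total.count 15), scaled them by TMM and applied its quasi-likelihood test, in each tissue alone for genotype and over all 13 libraries for tissue and interaction. P-values were adjusted by Benjamini-Hochberg over all genes tested, with a threshold of 0.05. The standard error (SE) was derived from the test, as the size of the log2 fold change divided by the root of the F statistic. CPM of single libraries are counts over gene counts, unscaled. A ratio against a group with 0 counts used 3 counts over that group. Pooled ratios of members with 1 to 3 counts in a group are given with exact 95% intervals.

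The 37 members, the lists and the tests were chosen with earlier results of these data known. The genes named with full values were the tested members with the smallest p in each comparison (6 for genotype and interaction, 10 for tissue), or other members where the text says what singles them out. Alternatives were DESeq2 1.42.0, other scaling and filters, leaving out libraries and a replicate block. The scripts were tested on simulated counts. Same-numbered dNdK and Rosa26 libraries did not deviate together, so replicate numbers were taken as names only.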

Additional observations from a re-analysis of the deposited data

Results flagged for a closer look

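In groups of 4 libraries, a library is named here when its gap to the nearest other library as a share of the group's range is above Dixon's 95% critical value for 4 samples. The 43 groups examined were those of single genes with at least 10 counts in their highest library, and 3 were named; chance names about 1 in 20 groups. Cd2 stood at 2.47 CPM in muscle Rosa26 2, the highest of the Rosa26 muscles, with a gap of 0.893 of the range. Eomes, a factor of NK cells and CD8 memory T cells, stood at 4.44 CPM in aorta Rosa26 2, the highest Rosa26 aorta, with a gap of 0.909 of the range. Gzma stood at 0 CPM in aorta Rosa26 4, the shallowest library, where the other Rosa26 aortas were close to each other, with a gap of 0.863 of the range.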

How the results depend on the processing

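Replicate numbers are shared by the genotypes and were taken as names only. Correlations of deviations from the group means were -0.35 and 0.19 over same-numbered aortas and 0.21, -0.043 and -0.0077 over same-numbered muscles. With 2 dNdK aortas the deviations of the 2 mirror each other, so the aorta values cannot decide on pairing. Muscles of unlike number ran over -0.19 to 0.24, a range that holds the same-numbered values. In a replicate block, a library without a same-numbered library of the other genotype adds nothing to the genotype contrast. The aorta contrast then sets dNdK 1 and 2 against Rosa26 1 and 2, the libraries with Rag1 counts. It called 7 of 29 members (0 without the block) and 163 of 11920 genes (1 without it), with Cd8b1 at -3.55 and edgeR adjusted p 0.02402. In muscle Rosa26 4 drops out of the contrast in the same way, and Tbx21 turned to 0.28. Leaving out 1 library gave Tbx21 estimates of -0.82 to 0.11, the highest without muscle Rosa26 4. Beyond the libraries that enter each contrast, the cause of these changes was not tested.

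Aorta genes called numbered 18 by DESeq2, 0 in a fit of all 13 libraries, 0 without the libraries with heart muscle RNA and 152 without those with Rag1 counts, while the members' median was -0.68 and -0.52 without these; leave-one-out gave 0 to 1 genes called. In muscle DESeq2 called 7 genes, leave-one-out 0 to 3, and the median ran over 0.18 to 1.92. For the interaction DESeq2 called 4 genes; the median ran over -4.01 to -2.80 leaving out 1 library, and was -2.12 without the heart RNA libraries, -2.04 without these and muscle dNdK 3, and -1.84 without the Rag1 libraries. For tissue in Rosa26, the median was 2.43 without the heart RNA libraries, 2.38 when muscle dNdK 3 was left out too, and 4.89 without scaling factors. Without the Rag1 libraries 6 of 24 members were called higher (median 2.47), where 2951 of 12016 genes were. With these 2 groups fitted alone 12 of 14 were, where 3424 of 11058 genes were. For tissue in dNdK, genes called numbered 3335, and 1621 without the heart RNA libraries, 1801 with the 2 groups alone and 1495 to 3844 under leave-one-out. There the median ran over -0.092 to 1.01 and was 0.94 without scaling factors, and members called were 0 to 1 under leave-one-out and 1 without scaling factors. The settings without the Rag1 libraries, without scaling factors, and without muscle dNdK 3 and the heart RNA libraries together were chosen after seeing the data. Of 474 alternative estimates of single members, 454 kept direction and side of the threshold, 17 lost the call, 1 gained it and 2 turned. In muscle 4 members had enough counts to be tested.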

Other observations

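Psmb11, a proteasome gene of the thymic cortex, had 10 and 7 counts in the dNdK aortas and 0, 0, 3 and 0 counts in the Rosa26 aortas. It also had 3, 0 and 2 counts in the dNdK muscles and 0, 2, 2 and 3 counts in the Rosa26 muscles, tissue with no thymus. Foxn1, a factor of thymic epithelium, had 1 count in aorta dNdK 2 and 0 in the other aortas. Neither was found in aorta Rosa26 1 and 2, the libraries with Rag1, Rag2 and Dntt counts. Other genes of the same list, of thymic and lymph node stroma, were found in those libraries. Ccl25 had 49 and 44 counts there and 34 and 35 in the dNdK aortas, and Cxcl13 had 458 and 2023 counts against 208 and 79. Neither gene was particular to those libraries. Cxcl13 had 484 counts in aorta Rosa26 3, without Rag1 counts, and Ccl25 had 7 to 57 counts in the muscle libraries. Ccl19 and Ccl21a, of the same list, had 0 counts in every library. The list summed to 4.85 to 175 CPM in the Rosa26 aortas and 12.3 to 29.8 CPM in the dNdK aortas. Ptcra, the partner chain of the T cell receptor in precursor cells, had 1 and 2 counts in aorta Rosa26 1 and 2 and 0 in the other libraries.

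In muscle dNdK 1 the B and plasma cell genes summed to 172 CPM and the 37 T and NK cell genes to 32.4 CPM, against 20.5 and 27.8 CPM in muscle dNdK 3, so the 2 dNdK muscles with the most T and NK cell transcripts differed in B cell transcripts.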
